A study of Mus musculus with 4 samples.

Results

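Genes that restrain mTORC1, the growth-promoting kinase complex built around mTOR, were examined in hearts of mouse embryos in which Adar1 had been targeted with Nkx2.5-Cre. The group holds 8 genes, chosen by symbol. They are the sestrins Sesn1, Sesn2 and Sesn3, the REDD genes Ddit4 and Ddit4l, the 4E-BP genes Eif4ebp1 and Eif4ebp2, and Deptor. All 8 were among the 14936 genes of the deposited table, and all 8 had at least 1 CPM (reads scaled to library size) in every library. Whole hearts of 4 embryos on a C57BL/6 background were taken at E18.5 and their poly(A) RNA was sequenced, 1 library per embryo. Every embryo was homozygous for the floxed Adar1 allele, the controls included. The controls, embryos 47 and 50, were wild type at Nkx2.5-Cre, and the mutants, embryos 51 and 54, carried 1 Cre allele. Nkx2.5-Cre places the recombinase under a gene of early heart cells, so it acts in only part of the cells of a heart. Only the mutants carried Cre, so effects of Cre itself and of targeting Adar1 cannot be told apart.

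mTORC1 promotes protein synthesis and growth when amino acids, growth factors and energy are plentiful. Amino acids act through the Rag GTPases on the lysosome, which GATOR1 inhibits and GATOR2 in turn releases, while growth factors and energy stress act through the TSC complex on the GTPase Rheb. Sestrins bind GATOR2, and Sestrin2 is a leucine sensor that lets go of GATOR2 when it binds leucine. REDD proteins act upstream of the TSC complex, Deptor binds mTOR directly, and the 4E-BPs, which mTORC1 phosphorylates, hold the cap-binding protein eIF4E away from the translation machinery. Several of these genes are known targets of stress-responsive transcription factors, among them ATF4, p53, the FoxO factors, HIF and the glucocorticoid receptor.

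The targeted gene, listed as Adar, stood at 30.2 and 35.7 CPM in controls 47 and 50 and at 195 and 213 CPM in mutants 51 and 54. It was thus higher in the libraries labelled mutant, the opposite of what a loss of reads would give (log2 fold change 2.60, SE 0.13, limma adjusted p = 2.41e-05). Which exons the loxP sites flank is not in the labels, and a value over the whole gene therefore does not check the deletion. For the Cre-positive embryos, the labelled genotype also reads as both wildtype and KO, so every direction below is that of the libraries labelled mutant by title. Depth on the listed genes ranged from 7457103 to 8998872 reads. Mitochondrial transcripts took 6.14% and 6.93% of the control reads, while mutant 51 had 2.08% and mutant 54 had 4.31%, so mutant 51 stood farther from the controls. All 8 cardiomyocyte markers were detected in every library, with a summed level of 49105 and 38718 CPM in the controls and 20143 and 31090 CPM in the mutants. Of these markers 2, the myosin light chain genes Myl2 and Myl7, fell. Rises and falls of markers are calls of the test described below, which called 17.8% of all genes higher and 14.2% lower. Of the fibroblast markers 3 of 6 fell, their sum being 4346 and 3818 CPM in controls and 2451 and 2916 CPM in mutants 51 and 54, and of the smooth muscle and pericyte markers 3 of 6 fell, from 1288 and 1106 CPM to 421 and 591 CPM. Red cell markers summed to 4934 and 11309 CPM in the controls, 605 CPM in mutant 51 and 4446 CPM in mutant 54, and endothelial markers to 865 and 1110 CPM against 881 and 900 CPM. Skeletal muscle markers, 2 of 6 of which were listed, summed to 2839 and 2491 CPM against 458 and 1283 CPM, with Ckm called lower. Ckm is also expressed by heart muscle, so this sum does not measure skeletal muscle alone. Lung and airway markers, also 2 of 6, summed to 6.90 and 8.99 CPM against 0.979 and 0.475 CPM, and both fell. Of 5 macrophage markers tested 2 rose and 1 fell, with sums of 93.7 and 77.4 CPM against 98.6 and 80.8 CPM. The part of these differences in the results below was not tested. In bulk hearts, fewer cells of a type and less RNA per cell cannot be told apart.

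Of the 8 brake genes, 2 rose and 2 fell in the libraries labelled mutant, and 4 did not pass the test. Sesn2 and Eif4ebp1 rose and Sesn1 and Eif4ebp2 fell, so the sestrin and the 4E-BP families each held 1 gene that rose and 1 that fell. The test was limma on log2(CPM + 1) over 14869 genes, p-values being adjusted by the Benjamini-Hochberg method and called under 0.05. That share of 50.0% compares with 31.9% of all genes tested, of which 17.8% rose and 14.2% fell. That share was 31.5% with edgeR and 24.7% with DESeq2. The median log2 fold change was -0.07 over the 8 genes and -0.01 over all genes. Both mutants lay beyond both controls for 5 of the 8 genes, against 72.2% of all genes, so a gap between the groups was common in this comparison. With upper-quartile scaling 34.9% of all genes were called and rises made up 43.4% of the calls, and with quantile normalization the values were 33.1% and 44.4%, against 55.6% rises here. The 8 genes kept their calls under both. Of all genes 3.84% were called without control 47, 4.5% without control 50, 26.9% without mutant 51 and 38% without mutant 54. Among the 8 genes, 3 of the 4 calls depended on having both controls. Leaving out mutant 54 moved the log2 fold change of Ddit4 to 1.52, with mutant 51 alone in its group.

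**Figure D1:**
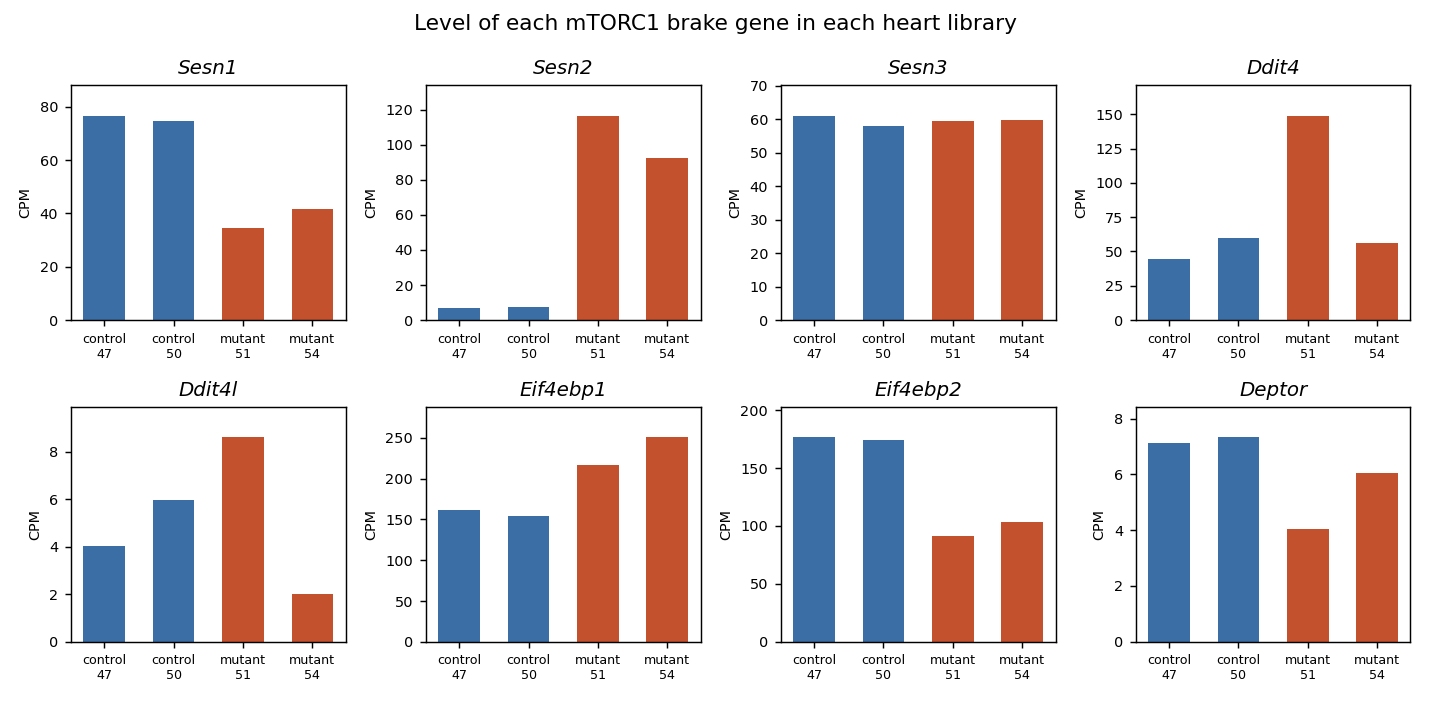
Bars give the CPM of each of the 8 genes in control libraries 47 and 50 (blue) and mutant libraries 51 and 54 (red), 1 bar per library and each panel on its own scale from 0. Sesn2 rises from 7.01 and 7.61 CPM to 117 and 92.5 CPM, Sesn1 and Eif4ebp2 are lower in both mutants, Sesn3 is level, and Ddit4 is high in mutant 51 alone.

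Sesn2 (ENSMUSG00000028893, chromosome 4, 132492032 to 132510501, minus strand, GRCm38) had the largest fold change of the 8 genes. Its level was 7.01 CPM in control 47 and 7.61 CPM in control 50, against 117 CPM in mutant 51 and 92.5 CPM in mutant 54. The control values rest on 61 and 55 reads and the mutant values on 1073 and 779. Both mutants lay far above both controls, and the gap between the mutants was small beside the gap between the groups. The group means were 7.31 ± 0.420 and 105 ± 17.2 CPM (SD, n = 2 each), a ratio of 14.3. On the log2 scale this rise was 3.66 (SE 0.16, limma adjusted p = 1.27e-05), with rank 130 among the rises of 14869 tested genes. Sesn2 remained past the threshold with each library left out in turn, with log2 fold changes between 3.49 and 3.83 and adjusted p up to 0.00364. Sesn2 encodes the sestrin best known for its induction by amino acid shortage and endoplasmic reticulum stress.

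Sesn1 (ENSMUSG00000038332, chromosome 10, 41809935 to 41908424, plus strand) went the other way. It stood at 76.7 and 74.7 CPM in controls 47 and 50 and at 34.5 and 41.7 CPM in mutants 51 and 54. The groups did not overlap, and the ratio of the group means was 0.503. The log2 fold change was -0.98 (SE 0.13, adjusted p = 0.00292 with limma). This call ended without control 47 (adjusted p = 0.0774) and without control 50 (0.0679), within a range over the alternatives from 6.88e-05 to 0.0774, while the fold change itself stayed between -1.11 and -0.85. Sesn1 is a known target of p53.

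Sesn3 (ENSMUSG00000032009, chromosome 9, 14275067 to 14333101, plus strand), known as a target of FoxO factors, lay between the other sestrins. Its level was 61.0 and 57.8 CPM in the controls and 59.3 and 59.6 CPM in mutants 51 and 54, so the mutants fell inside the range of the controls. The fitted log2 difference came to 0.00 (SE 0.11, adjusted p = 0.994), and the sign turned with upper-quartile scaling (-0.089) and quantile normalization (-0.092). The difference between Sesn2 and Sesn1 was not tested as such. Their values moved in opposite directions in both mutants.

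The bases before the transcription starts of the 3 sestrin genes are shown because these paralogs behaved in 3 different ways. Each line gives the stretch before the RefSeq start (GRCm38.p6) that holds no annotated GENCODE M21 exon, read 5′ to 3′ on the gene's strand. Capitals mark the CCAAT box, here read as ATTGG since the box lies on the opposite strand. The windows are chr4:132510502-132510706 (minus strand, 205 bases) for Sesn2, chr9:14276051-14276300 (plus strand, 250 bases) for Sesn3 and chr10:41887189-41887438 (plus strand, 250 bases) for the downstream start of Sesn1. The Sesn3 and Sesn1 windows lie inside the GENCODE spans of their genes, and the other Sesn1 window, which also holds a CCAAT box, is not shown because it lies wholly in an annotated exon.
Sesn2: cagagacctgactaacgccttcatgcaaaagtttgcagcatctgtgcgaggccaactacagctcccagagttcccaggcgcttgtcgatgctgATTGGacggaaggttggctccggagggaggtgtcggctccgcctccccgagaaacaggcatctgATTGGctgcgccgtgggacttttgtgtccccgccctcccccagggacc
Sesn3: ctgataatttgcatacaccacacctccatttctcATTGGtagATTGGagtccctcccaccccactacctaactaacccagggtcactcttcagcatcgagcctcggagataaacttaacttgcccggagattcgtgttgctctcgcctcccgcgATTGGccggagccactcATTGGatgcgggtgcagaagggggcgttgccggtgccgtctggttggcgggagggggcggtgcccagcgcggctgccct
Sesn1: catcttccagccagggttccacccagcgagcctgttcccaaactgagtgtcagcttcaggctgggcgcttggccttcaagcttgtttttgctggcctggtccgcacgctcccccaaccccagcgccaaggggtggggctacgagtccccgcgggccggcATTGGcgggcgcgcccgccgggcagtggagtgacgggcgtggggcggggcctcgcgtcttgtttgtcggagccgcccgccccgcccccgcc

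The Sesn2 stretch held 2 CCAAT boxes, 157 and 93 bases before the start, the Sesn3 stretch held 4 and the Sesn1 stretch 1. The stretches differ in length, and whether the number of boxes bears on the direction of change was not tested. CCAAT or its reverse complement ATTGG stood in 33.8% of 32851 promoter windows of 250 bases, and in 5 of the 7 member windows, those of the sestrins and Ddit4. The ATF4 composite element TGATGNAA, searched on both strands as were all motifs here, stood in 3.45% of windows and in none of the 7 windows, which belong to the 6 members that the promoter table holds. The same was true of the FoxO site GTAAACA, found in 3.17% of windows. The hypoxia core ACGTG stood in 16.6% of windows, and among the members in those of Ddit4 and Eif4ebp2. No searched motif holds the letters of another. Eif4ebp1 and Deptor were not matched in that table. A match in such a window is a description of the letters only, and a missing match says nothing of binding elsewhere.

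Ddit4 (ENSMUSG00000020108, chromosome 10, 59949669 to 59951834, minus strand) encodes REDD1, which is induced by low oxygen, DNA damage, glucocorticoids and amino acid shortage. It was high in 1 library. Its level was 44.4 and 59.5 CPM in controls 47 and 50, 149 CPM in mutant 51 and 56.0 CPM in mutant 54, so mutant 54 lay inside the range of the controls. The log2 fold change of 0.82 (SE 0.40) did not pass the test (limma adjusted p = 0.155). Without mutant 54 it was 1.52 and without mutant 51 it was 0.12, the ends of the range over the alternatives. Each of these fits leaves a lone mutant, so the spread between mutants does not enter it. Mutant 51 held 1370 reads of Ddit4 (95% Poisson interval 1298 to 1445) and mutant 54 held 472 (430 to 517), which covers counting error only. The gap between the mutants was thus larger than counting error, 1.40 on the log2 scale. Mutant 51 was also the library with the lowest mitochondrial share given above, and the part of that in the Ddit4 value was not tested.

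Ddit4l (ENSMUSG00000046818, chromosome 3, 137621612 to 137628333, plus strand) encodes REDD2, a relative of REDD1 that is found in muscle. It was a low-level gene here. Its level was 4.02 and 5.95 CPM in the controls, 8.60 CPM in mutant 51 and 2.02 CPM in mutant 54, the mutants thus lying on both sides of the controls. These values rest on 35, 43, 79 and 17 reads in libraries 47, 50, 51 and 54, with 95% Poisson intervals of 62.5 to 98.5 reads in mutant 51 and 9.90 to 27.2 reads in mutant 54. The log2 fold change was -0.13 (SE 0.51, adjusted p = 0.856). Its sign also turned with edgeR (0.13) and DESeq2 (0.10). It was -0.97 without mutant 51 and 0.70 without mutant 54, so the direction rested on which mutant was read. Both REDD genes were higher in mutant 51 than in mutant 54.

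Eif4ebp1 (ENSMUSG00000031490, chromosome 8, 27260329 to 27276674, plus strand), which encodes 4E-BP1 and is a known ATF4 target, rose. It stood at 161 and 155 CPM in controls 47 and 50 and at 216 and 251 CPM in mutants 51 and 54. The groups did not overlap, and the higher mutant was 54 rather than 51. The ratio of the group means was 1.48 and the log2 fold change 0.56 (SE 0.13, limma adjusted p = 0.0174). The call ended without control 47 (adjusted p = 0.147) and without control 50 (0.162), in a range over the alternatives from 0.00812 to 0.162. The fold change lay between 0.45 and 0.66 in all of them. In the authors' deposited table the FDR of Eif4ebp1 was 0.0203.

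Eif4ebp2 (ENSMUSG00000020091, chromosome 10, 61428491 to 61452661, minus strand), which encodes 4E-BP2, fell. Its level was 177 and 175 CPM in the controls and 91.7 and 103 CPM in mutants 51 and 54, and the groups did not overlap. The ratio of the group means was 0.555 and the log2 fold change -0.85 (SE 0.12, adjusted p = 0.00300 with limma). This call too ended without control 47 (adjusted p = 0.0781) and without control 50 (0.0707), in a range from 5.39e-05 to 0.0781, with fold changes from -0.94 to -0.76. In the authors' deposited table Eif4ebp2 had an FDR of 0.00352, Sesn1 of 0.00345 and Sesn2 of 3.14e-05, while Ddit4 had 0.111.

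Deptor (ENSMUSG00000022419, chromosome 15, 55112317 to 55259271, plus strand) encodes the inhibitor that binds both mTOR complexes. It stood at 7.13 and 7.33 CPM in the controls and at 4.03 and 6.05 CPM in mutants 51 and 54. Both mutants lay below both controls, but the log2 fold change of -0.47 (SE 0.25) did not pass the test (limma adjusted p = 0.189). It was -0.22 without mutant 51 and -0.71 without mutant 54, so mutant 51 carried most of the fitted difference. The 95% Poisson intervals of the mutants overlapped, at 26.1 to 51.0 reads in mutant 51 and 38.0 to 67.1 reads in mutant 54. The values rest on between 37 and 62 reads per library. An exon of Gm9920, on the opposite strand, overlaps an exon of Deptor, and since the strand setting of the counting is not given in the sources used here, their reads are told apart only if strand was used.

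**Figure D2:**
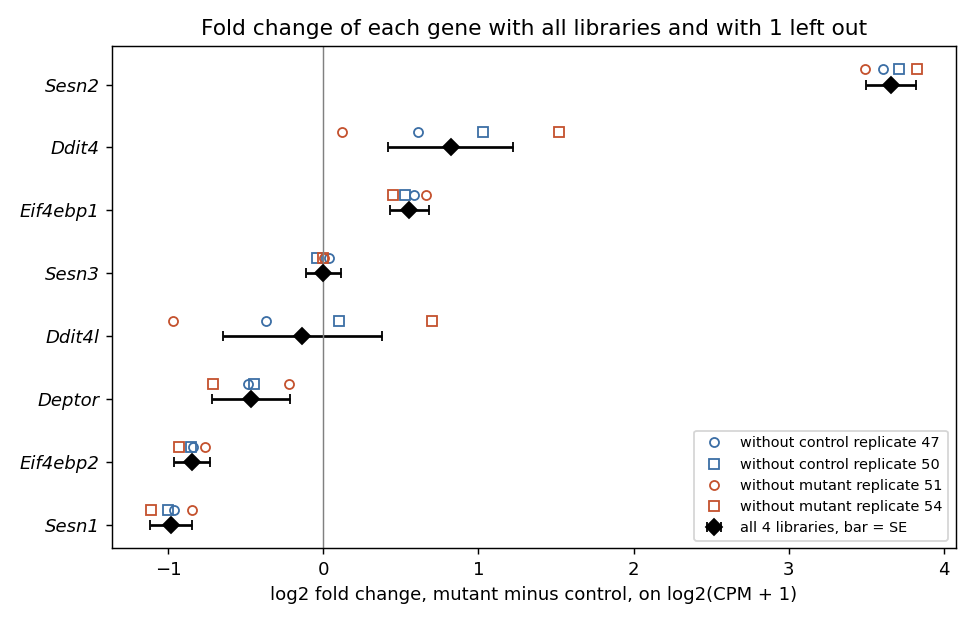
Black diamonds give the log2 fold change, mutant minus control, of each of the 8 genes with its standard error, and open symbols give the value with 1 library left out (blue for a control, red for a mutant). Sesn2 stays between 3.49 and 3.83, while Ddit4 moves between 0.12 and 1.52 and Ddit4l crosses 0 depending on which mutant is left out.

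The order of the sestrins by level differed between the groups. Levels of different genes are compared here as CPM per kilobase of annotated exon, which depends on the transcripts a heart uses. In the controls Sesn1 led, at 19.3 and 18.8 CPM per kilobase, followed by Sesn3 at 3.997 and 3.79 and by Sesn2 at 2.02 and 2.19. In the libraries labelled mutant Sesn2 led, at 33.6 and 26.6 CPM per kilobase in mutants 51 and 54, followed by Sesn1 at 8.66 and 10.5 and Sesn3 at 3.88 and 3.90. Sesn2 thus passed from the lowest to the highest sestrin in both mutants. The ratio of Sesn2 to Sesn1 was 0.105 in control 47, 0.117 in control 50, 3.88 in mutant 51 and 2.54 in mutant 54. The sum of the 3 sestrins was 25.3 and 24.7 CPM per kilobase in the controls and 46.1 and 41.0 in the mutants, so the summed level was higher although Sesn1 fell.

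The 4E-BP genes also changed in proportion. Eif4ebp1 stood at 73.5 and 70.5 CPM per kilobase in the controls, against 30.5 and 30.2 for Eif4ebp2, a ratio of 2.41 and 2.33. In mutants 51 and 54 the ratio was 6.21 and 6.41. Their sum was 104 and 101 CPM per kilobase in the controls and 114 and 132 in the mutants. Set against Eif4e, the gene of the protein they bind, the sum was 5.99 and 5.69 times as high in the controls and 5.57 and 6.51 times in mutants 51 and 54, so the groups overlapped in this ratio. Without division by length they did not, at 3.24 and 3.098 in the controls and 2.498 and 2.90 in the mutants. The 4E-BP sum itself, without that division, was below both controls in mutant 51 and above both in mutant 54. These ratios are a description and were not tested.

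**Figure D3:**
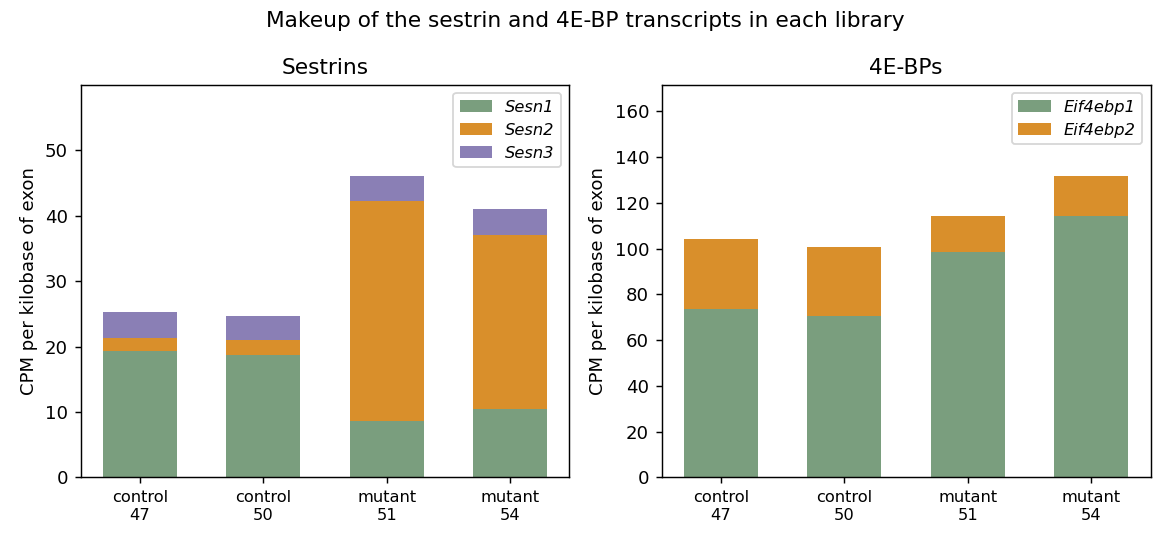
Stacked bars give the CPM per kilobase of exon of the 3 sestrin genes (left) and the 2 4E-BP genes (right) in each library. Sesn2 forms the smallest part of the sestrin bar in controls 47 and 50 and the largest in mutants 51 and 54, and Eif4ebp2 takes a smaller part of the 4E-BP bar in the mutants.

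Over the 8 genes in the controls, Eif4ebp1 was highest per kilobase. Eif4ebp2, at 30.5 and 30.2 CPM per kilobase, and Ddit4, at 25.3 and 33.9, followed and overlapped. Sesn1 and Sesn3 came next, then Sesn2 at 2.02 and 2.19 and Ddit4l at 1.38 and 2.04, which overlapped too. Deptor was lowest, at 0.803 and 0.826 CPM per kilobase.

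Among the genes of the complex that the brakes restrain, none of 10 subunits and assembly factors of the mTOR complexes passed the test (limma, edgeR's quasi-likelihood test and DESeq2 all gave 0), and 2 had an unadjusted p under 0.05. Mtor itself, named after its values were seen, stood at 70.5 and 62.6 CPM in the controls and 87.6 and 84.1 CPM in the mutants (log2 fold change 0.36, SE 0.12, limma adjusted p = 0.0548), and with TMM scaling 1 subunit rose. Of 11 tested genes of the GATOR complexes and their anchor KICSTOR, 2 rose and 2 fell, with a median log2 fold change of 0.12. The share called, 36.4%, was near the 31.9% of all genes, as were the 37.5% and 29.4% of the lists in the following paragraphs on the Rag GTPases and the TSC complex. Itfg2, a KICSTOR subunit, rose by 0.79 (SE 0.17) and Mios, a subunit of GATOR2, the complex that sestrins bind, rose by 0.56 (SE 0.14). Kptn, also of KICSTOR, fell by 0.62 (SE 0.17) and Wdr24, of GATOR2, fell by 0.59 (SE 0.17). These 4 calls ended when either control was left out. There were 2 rises and 1 fall without mutant 51, and 1 of each without mutant 54. DESeq2 called 1 rise and no fall in this list.

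Of 16 genes of the Rag GTPases, Ragulator and the amino acid sensors, 1 rose and 5 fell, with a median of -0.15. Castor2, a relative of the arginine sensor that acts on GATOR2, fell by 1.49 (SE 0.15, limma adjusted p = 0.000869), from 37.0 and 33.3 CPM to 11.4 and 12.3 CPM. Lamtor4 fell by 1.22 (SE 0.24) and Lamtor2 fell by 0.63 (SE 0.13), both subunits of Ragulator, which anchors the Rag GTPases to the lysosome. Rragc, which encodes RagC, rose by 0.38 (SE 0.12), and this call ended with upper-quartile scaling, quantile normalization and DESeq2, which called 3 falls. Without control 47 and without control 50 the list held 0 rises and 1 fall, which was Castor2 in both cases. Without mutant 51 there were 0 rises and 4 falls.

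Of 17 genes of the TSC complex, Rheb, Akt and AMPK, 3 rose and 2 fell, with a median of 0.19. Pdpk1, the kinase that activates Akt, rose by 0.82 (SE 0.11) and Cab39, a partner of the AMPK-activating kinase LKB1, rose by 0.43 (SE 0.13). Akt1 fell by 0.56 (SE 0.13) and Prkag1, an AMPK subunit, fell by 0.44 (SE 0.12). Tsc1, Tsc2 and Rheb did not pass the test. The call of Cab39 ended with upper-quartile scaling, quantile normalization and DESeq2. That of Prkag1 ended with DESeq2, which called 1 fall in this list. Of 12 mTORC1 targets outside the 4E-BPs, 1 rose and 2 fell, with a median of -0.06. The share called was 25% here and 18.2% for the cap-binding factors below, both under the 31.9% of all genes. Larp1, which binds mRNAs of the translation machinery, rose by 1.01 (SE 0.14), while Maf1, a repressor of RNA polymerase III, fell by 0.75 (SE 0.15) and Pdcd4, an inhibitor of eIF4A, fell by 0.72 (SE 0.15). Upper-quartile scaling and quantile normalization gave 4 falls in this list, and leaving out mutant 51 gave 3. Of 11 tested cap-binding factors 2 rose, Eif4g3 by 0.48 (SE 0.12) and Eif4enif1 by 0.39 (SE 0.11), and no gene fell in limma, edgeR or DESeq2, with 1 fall at an unadjusted p under 0.05. Upper-quartile scaling gave 1 rise and 1 fall, DESeq2 1 rise and quantile normalization none. Eif4e stood at 104 and 106 CPM in the controls and 123 and 122 CPM in the mutants (log2 fold change 0.22, SE 0.11, adjusted p = 0.165). In these 3 lists no call remained without control 47 or without control 50. Without mutant 51 the TSC list held 2 rises and 1 fall, and without mutant 54 it held 3 falls and the cap-binding list 1 rise.

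Genes of the factors known to act on the brake genes differed in how they moved. Of 12 ATF4 pathway genes 11 rose and none fell, a share of 91.7% against 31.9% of all genes, with a median log2 fold change of 2.91. edgeR and DESeq2 each called 12 rises and no fall, and no gene of the list had a fall at an unadjusted p under 0.05. Chac1, a glutathione-degrading enzyme, rose by 6.58 (SE 0.19), Atf3 by 4.78 (SE 0.16) and Asns, asparagine synthetase, by 4.57 (SE 0.14). The rise of Sesn2, 3.66, lay within the range of this list and that of Eif4ebp1, 0.56, below all of its members, the lowest being Vldlr at 0.75 (not past the threshold). Without either control 9 of the 12 were past the threshold. These genes were chosen with earlier results of these libraries known, so their count is no independent evidence of direction.

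Of 12 genes of the p53 pathway 6 rose and none fell, with a median of 0.94. The share called was 50.0%, against 31.9% of all genes. DESeq2 called 8 rises and edgeR 6, with no fall in either and none at an unadjusted p under 0.05. Cdkn1a, which encodes the cell cycle inhibitor p21, rose by 2.33 (SE 0.31), Btg2 by 2.09 (SE 0.18) and Plk2 by 1.81 (SE 0.11). Sesn1, itself a p53 target, fell. The count of rises was 2 without control 47, 2 without control 50 and 10 without mutant 54, and 1 gene fell without mutant 51. In this list 11 of 12 genes were higher in mutant 51 than in mutant 54, with a median gap of 0.72 on the log2 scale, against 47.5% of all genes and a median gap of -0.02. Ddit4, with a gap of 1.40, differed between the mutants in the same direction. Of the ATF4 list 9 of 12 genes were higher in mutant 51, with a median gap of 0.21. Of the hypoxia list 9 of 12 were, with a median gap of 0.30, while the glucocorticoid list held 5 of 10. Whether the gap of Ddit4 is linked to any of these lists was not tested.

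Of 12 genes of the FoxO pathway 4 rose and 2 fell, with a median of 0.27. The share called was 50.0% here and in the glucocorticoid list below and 41.7% in the hypoxia list, against 31.9% of all genes. Irs2, an insulin receptor substrate, rose by 1.84 (SE 0.13), Bcl6, a transcriptional repressor, rose by 1.52 (SE 0.40) and Foxo3 rose by 0.74 (SE 0.11), while Foxo4 fell by 1.05 (SE 0.15) and Pik3ip1, a PI3K inhibitor, fell by 0.50 (SE 0.14). Only 1 of these genes rose without control 47 or without control 50, and no fall remained, while DESeq2 called 1 fall. The call of Bcl6 also ended without mutant 51, its value lying between 0.95 and 2.10 with 1 library left out. Of 12 hypoxia genes 2 rose and 3 fell, with a median of -0.38. Vegfa, an angiogenic factor, rose by 0.91 (SE 0.21) and Hif1a by 0.54 (SE 0.15), while Pdk1 fell by 1.23 (SE 0.14), Egln1 fell by 0.83 (SE 0.12) and Egln3 fell by 0.72 (SE 0.13). Without mutant 51 there were 1 rise and 4 falls, without mutant 54 there were 4 rises and 3 falls, without control 47 there was 1 fall and without control 50 no call remained. Upper-quartile scaling gave 1 rise. Of 10 glucocorticoid genes 4 rose and 1 fell, with a median of 0.41. Mt2, a metallothionein, rose by 1.26 (SE 0.26), Per1, a clock gene, by 1.06 (SE 0.14) and Nr3c1, the receptor, by 0.58 (SE 0.13), while Sgk1 fell by 0.84 (SE 0.17). No call of this list remained without either control, and 2 genes fell without mutant 51.

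**Figure D4:**
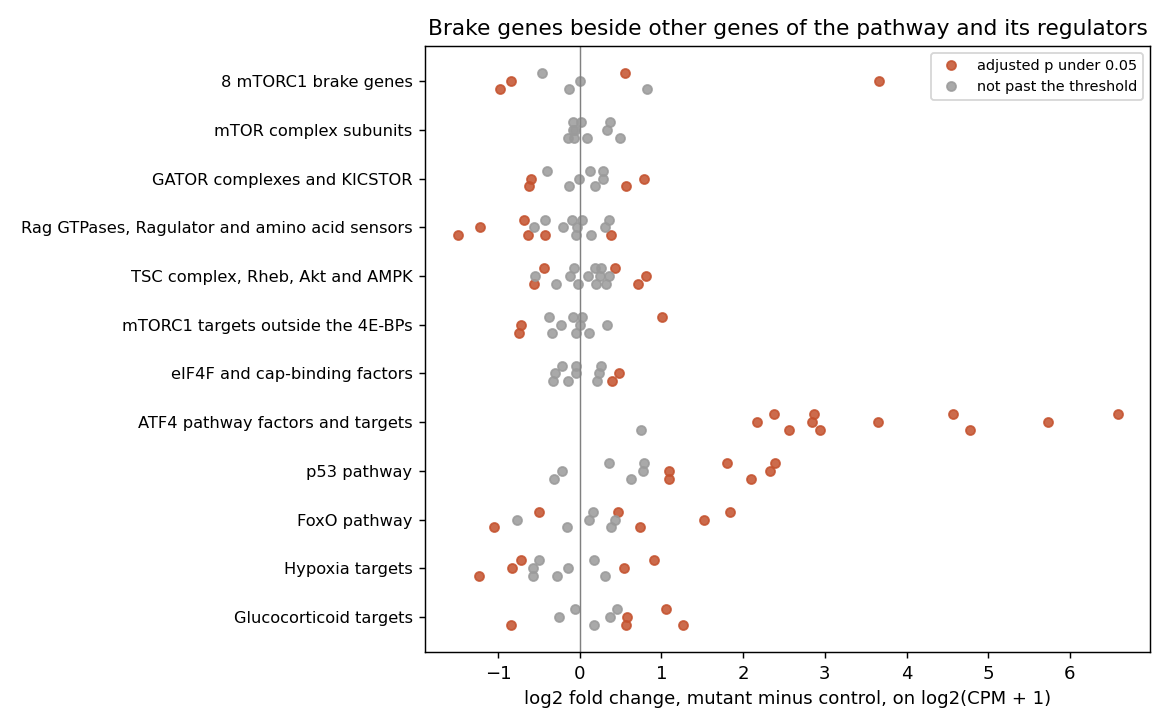
Each point is 1 gene, placed by its log2 fold change (mutant minus control), in rows for the 8 brake genes and for 11 lists of pathway genes and regulators, with genes past an adjusted p of 0.05 in red and the rest in grey. The ATF4 list lies to the right, with 11 of 12 genes past the threshold, while the mTOR complex row holds none, and the brake genes spread to both sides of 0 with Sesn2 at 3.66.

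The genes whose profile over the 4 libraries was most like that of Sesn2 were Slc3a2, Hap1 and Slc7a5. Likeness was the Euclidean distance between log2(CPM + 1) values centred on each gene's mean, over 4 libraries, and the distances were 0.134, 0.150 and 0.210. Slc7a5 and Slc3a2 encode the light and heavy chain of a leucine transporter of the cell surface. Slc3a2 went from 38.3 and 40.8 CPM in the controls to 518 and 420 CPM in mutants 51 and 54, and Slc7a5 from 35.5 and 32.2 CPM to 522 and 433 CPM. Hap1, which encodes a partner of huntingtin, went from 5.75 and 7.33 CPM to 110 and 84.6 CPM. All 3 were thus higher in mutant 51 than in mutant 54, as Sesn2 was. They were picked for their likeness to Sesn2, so this shared order is no separate result. Within a distance of 0.3 lay 12 genes for Sesn2, 13 for Ddit4 and 1 for Ddit4l, against 616 for Sesn1, 916 for Eif4ebp2, 1225 for Deptor, 1401 for Eif4ebp1 and 3452 for Sesn3.

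For Sesn1 the nearest genes were Aifm1, Eid1 and Pfdn5, with log2 fold changes of -0.96, -0.99 and -0.94. For Eif4ebp2 they were Gnb5, Pmpcb and Ap2s1, with values from -0.87 to -0.83, and for Eif4ebp1 they were F8, Nbn and Plekhm2, with values from 0.53 to 0.56. F8 did not pass the test (limma adjusted p = 0.0965). With so many genes at a like distance, these names are a description of the nearest rows only. Ddit4 was added after its values were seen, and its nearest genes were Cytip, Ass1, an enzyme of arginine synthesis, and Trp53inp1, a p53 target. Trp53inp1 stood at 35.1 and 41.8 CPM in the controls, 107 CPM in mutant 51 and 40.7 CPM in mutant 54. Like Ddit4, Trp53inp1 was high in mutant 51 alone. It was picked for its likeness to Ddit4, so this shared pattern is no separate result. Trp53inp1 also belongs to the p53 list above, and a link between it and Ddit4 was not tested.

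**Figure D5:**
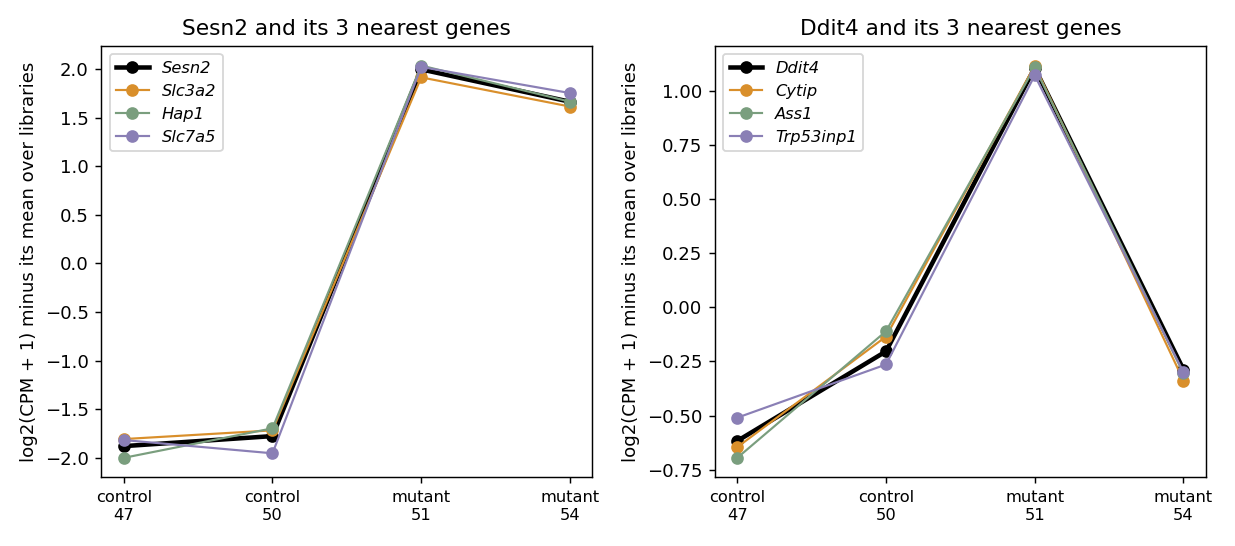
Lines give log2(CPM + 1) minus its mean over the 4 libraries for Sesn2 and its 3 nearest genes (left) and for Ddit4 and its 3 nearest genes (right), with libraries in the order 47, 50, 51 and 54. On the left both mutants stand above both controls, and on the right mutant 51 stands apart from the other 3 libraries.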

How the data were processed

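Tools named in the submitters' processing notes are STAR, DESeq, fastp 0.20.0 and edgeR 3.10, with GRCm38 as build. Counting and strand choices were not given in the sources used here. Per the file headers the deposited columns are CPM, treated here as signal because the column sums differ from those of plain CPM. The authors also deposited log2 values, an F score, p-value and FDR, of which FDR is printed. Symbols and positions were taken from GENCODE M21, which matched 14916 of 14936 identifiers.

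Whole reads were recovered for 100% of values (tolerance 0.001), as each library's CPM rise in steps, 1 read being worth 0.109 to 0.138 CPM. A gene entered with 1 CPM or more in at least 2 libraries, which left 14869, and log2(CPM + 1) was compared with limma-trend (limma 3.58.1, R 4.3.3), genotype being the only term. Fold changes are on that scale, which understates low genes. The steps were tested on simulated data. Alternatives were upper-quartile, TMM and quantile scaling, pseudocounts of 0.5 and 0.1, no filter and a filter at 5 CPM, edgeR 4.0.16 and DESeq2 1.42.0 on the recovered reads, and each library left out. The labels name no batch. P-values rest on the spread between single embryos, 2 a group, with the variance of each gene drawn toward a trend over all genes tested.

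The 8 genes and the gene lists were chosen with earlier results of these data known. Named genes are the 8, Adar, the up to 3 rises and 3 falls with the smallest adjusted p in each list, and the 3 nearest profiles of each called gene. Of the genes this rule names, 1 is not reported here. Promoter sequences are RefSeq's on GRCm38.p6.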

Additional observations from a re-analysis of the deposited data

How the results depend on the processing

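All calls and non-calls of the 8 genes held under the 9 alternatives that keep every library. Sesn3, level here, turned to -0.089 with upper-quartile scaling and to -0.092 with quantile normalization, and Ddit4l, also not called, to 0.13 with edgeR's quasi-likelihood test and 0.10 with DESeq2. With 1 library left out, the genes called of the 8 ranged from 1 to 5 (rises 1 to 3, falls 0 to 2), of all genes from 571 to 5655 (rises 534 to 2905, falls 37 to 2750) and of the pathway genes, 53 of 135 with all libraries, from 13 to 58 (rises 12 to 41, falls 1 to 18). The low ends came without a control. A lone control is then assumed to vary like the mutants, and a lone mutant like the controls. Fold changes then ranged from -1.11 to -0.85 for Sesn1, -0.037 to 0.040 for Sesn3, 0.12 to 1.52 for Ddit4, -0.97 to 0.70 for Ddit4l, 0.45 to 0.66 for Eif4ebp1 and -0.93 to -0.76 for Eif4ebp2. Of Adar and the named list genes, 39 in all, 38 had a value under each of the 9 alternatives, of which 28 kept call and direction (Bcl6 had none under the 5 CPM filter). Of the 39, 8 kept their call with each library left out and 0 changed direction under any alternative. The nearest-profile genes were not rerun. Without division by length the mean ratio in controls and mutants was 0.0514 and 0.516 for Sesn2 to all sestrins, 0.900 and 2.40 for Eif4ebp1 to Eif4ebp2, 3.17 and 2.70 for the 4E-BP sum to Eif4e, where the groups then no longer overlapped, and 10.5 and 22.6 for Ddit4 to Ddit4l, and 0.0967 and 2.80 for Sesn2 to Sesn1. Depth limits Ddit4l and Deptor, at 17 to 79 reads per library, and the control values of Sesn2, at 61 and 55 reads. Where a result moved, the cause was not tested.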
